A study of Mus musculus with 6 samples.

Results

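The 10 genes of WNT4, R-spondin and Lgr signalling, chosen by symbol, were followed across the cell types of the fetal mouse gonad, out of 26251 genes listed in 6 single cell libraries: the ligands *Wnt4* and *Wnt5a*, the secreted agonist *Rspo1*, its receptors *Lgr4* and *Lgr5*, the ubiquitin ligases *Znrf3* and *Rnf43*, the receptor *Fzd1*, and *Axin2* and *Lef1*, which act inside the cell. All 10 genes were found in the files and none was left out. Gonads were taken at E15.5 from 3 groups with 2 libraries each. Control XY and control XX gonads carried intact alleles (Amh+/+; Inhbb+/+), and dKO XY gonads lacked both genes (Amh-/-; Inhbb-/-). The mice had a C57BL/6 background and came from crosses of single heterozygotes, the deletions are in every cell of the dKO embryo, and both gonads of 1 animal were pooled before dissociation, freezing, thawing and capture on the 10x Genomics platform. The study calls the libraries of a group biological replicates.

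WNT ligands bind Frizzled receptors and Lrp co-receptors, and in the canonical branch this keeps β-catenin from being degraded, so that it can enter the nucleus and act with TCF and LEF factors. ZNRF3 and RNF43 remove Frizzled receptors from the cell surface; R-spondins, bound to LGR receptors, take these ligases away and so raise the response of the cell to WNT. In the mouse ovary *Rspo1* and *Wnt4* are known for their part in granulosa cell differentiation, while in the testis the pathway is held down in Sertoli cells, and *Axin2* and *Lef1* are widely used as readouts of it.

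After the filter on genes, mitochondrial and *Hbb* transcripts, 39350 of 68064 barcodes were kept, from 4781 to 8569 cells and 118475468 to 221675316 UMIs (unique molecules counted) per library. Barcodes with at least 25% mitochondrial UMIs, which the filter removes, made up 24.4% and 28.3% of the dKO XY barcodes and 2.22% to 9.35% in the others; 351 of the kept cells have a barcode that also occurs in another library. The labels were checked by the deleted genes: for *Amh*, supporting cells held 2021 and 1872 CPM (UMI counts scaled to the same total in each library and cell type) in control XY against 17.6 and 15.3 in dKO XY. *Inhbb* stood at 160.3 and 182 CPM in control XY, with 40.5 and 49.4 in dKO XY, so transcripts of the deleted gene were still counted. Supporting cells were the 2 clusters named from Sertoli and granulosa markers: XY cells lay mostly in the first and XX cells in the second. Of the 7 granulosa markers all passed in the granulosa cluster, and of the 9 Sertoli markers all passed in the Sertoli cluster.

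The members lie on 7 chromosomes of GRCm38 (GENCODE M21), and all are protein coding. *Wnt4* runs from 137277489 to 137299726 and *Rspo1* from 124986430 to 125009099, both on the plus strand of chromosome 4. *Lgr4* is on chromosome 2 from 109917647 to 110014257 and *Lgr5* on the minus strand of chromosome 10 from 115450311 to 115587780. *Axin2* is on chromosome 11 from 108920349 to 108950783, where *Rnf43* (87662722 to 87735539) and *Znrf3* (5276324 to 5444847, minus strand) also lie. *Lef1* is on chromosome 3 from 131110471 to 131224356, *Wnt5a* on chromosome 14 from 28504750 to 28527448 and *Fzd1* on the minus strand of chromosome 5 from 4753839 to 4758035.

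The promoters of *Rspo1*, which changed most in supporting cells, and of *Axin2* and *Lef1*, the readouts, are given as the 250 bases before the RefSeq start on GRCm38.p6, all on the plus strand, at chr4:124986180-124986429, chr11:108920099-108920348 and chr3:131110047-131110296. The TCF and LEF motif CTTTGAT was searched on both strands (reverse ATCAAAG), and was in 0 of the 11 promoters listed for 7 of the members, against 3.21% of 32851 promoters; *Wnt5a*, *Lgr5* and *Znrf3* have no entry. Its first 5 bases, CTTTG (reverse CAAAG), which were searched after the longer form had not been found and overlap it, were in 5 of the 11, those of *Lef1* and *Fzd1*, and in 48.6% of all promoters. *Lef1* has several entries. In the 1 shown, capitals mark CTTTG, whose first base lies 161 bases before the start. The entry at chr3:131110073-131110322 overlaps it and holds the same match, 187 bases before its own start. This site is thus counted in both entries. These are matches of letters in a window and nothing more.
Rspo1: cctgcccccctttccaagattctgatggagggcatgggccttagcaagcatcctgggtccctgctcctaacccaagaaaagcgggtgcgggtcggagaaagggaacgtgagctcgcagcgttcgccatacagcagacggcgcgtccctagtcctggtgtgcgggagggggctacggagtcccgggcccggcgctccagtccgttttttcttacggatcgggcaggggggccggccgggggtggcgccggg
Axin2: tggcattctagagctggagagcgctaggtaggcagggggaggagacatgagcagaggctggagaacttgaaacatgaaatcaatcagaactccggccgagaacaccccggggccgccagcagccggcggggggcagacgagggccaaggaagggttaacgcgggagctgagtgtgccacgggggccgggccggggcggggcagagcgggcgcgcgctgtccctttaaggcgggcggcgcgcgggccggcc
Lef1: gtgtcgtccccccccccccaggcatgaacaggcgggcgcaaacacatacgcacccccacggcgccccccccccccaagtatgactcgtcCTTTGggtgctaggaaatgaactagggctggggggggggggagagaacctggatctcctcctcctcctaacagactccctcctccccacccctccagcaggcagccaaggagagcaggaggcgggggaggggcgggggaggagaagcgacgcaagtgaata

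Levels across cell types are a description with no test, since the types come from clusters of the same cells. In control XY gonads, *Wnt4* transcripts were highest in interstitial cells, at 309 and 318 CPM in the 2 libraries. Supporting cells of the same gonads had 53.1 and 59.4 CPM. In control XX the order was reversed, with 559 and 542 CPM in supporting and 429 and 363 in interstitial cells. In dKO XY, interstitial cells (222 and 188 CPM) still stood above supporting cells (139.5 and 159 CPM), with no overlap between them. Pericytes came next in control XY, at 121 and 175 CPM.

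*Wnt5a*, a ligand best known for WNT signalling without β-catenin, was highest in interstitial or epithelial cells in all groups. Interstitial cells held 346 and 352 CPM in control XY, against 223 and 228 in dKO XY, while control XX had 216 and 189.8. Epithelial cells (the mesothelial covering of the gonad, named from markers such as *Upk3b* and *Krt19*) held 397 and 448 CPM in control XY, against 72.5 and 116 in dKO XY, while control XX had 91.8 and 189.7, and the lower dKO XY value lay within the Leydig cells of that group (60.6 and 77.1). Interstitial markers moved with it in the epithelial cells: the sum of 8 such markers was 6537 to 6695 CPM in control XY, against 1532 to 1885 in dKO XY and, in control XX, 1707 to 4163, and their part in the *Wnt5a* levels was not tested. The control XY sum was near those of the interstitial cluster led by *Msc* (7358 and 7050 CPM) and of the cycling one (6522 and 6306), both described below. The control XY epithelium was 32 and 51 cells, so every level given for it rests on few cells.

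*Rspo1* was highest in the epithelium of control XY (32 and 51 cells), at 228 and 173 CPM, against 5.08 and 3.36 in supporting and 15.3 and 12.7 in interstitial cells. The epithelium held 327 and 243 CPM in dKO XY, above control XY, and 225 and 162 in control XX, which overlapped it. Supporting cells stood at 126 and 158 CPM in dKO XY and at 262 and 231 in control XX. Of the 3 groups, control XX was the one whose supporting cells stood above the epithelium, with no overlap.

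The receptors differed from each other. *Lgr5*, the more restricted of the pair, was found in supporting and epithelial cells; in control XY these held 15.2 and 18.1, and 4.13 and 8.21 CPM. Germ, Leydig, interstitial, endothelial and immune cells and pericytes stayed at or under 1.11 CPM in control XY and 4.74 CPM in dKO XY. *Lgr4* was spread widely, with 101 and 106 CPM in control XY interstitial cells, 34.5 and 34.6 in supporting cells and 9.31 to 21.8 CPM in endothelial cells, pericytes and immune cells. *Fzd1* was highest in pericytes of control XY (16.7 and 17.3 CPM), next to interstitial cells (15.3 and 16.5), and both overlapped the range of the epithelium (12.4 and 17.0).

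The ligases split in the same way. *Znrf3* was found in all 8 types compared, from 3.21 to 23.8 CPM, with supporting cells highest in control XY (18.0 and 21.3) and dKO XY (21.4 and 21.5) and germ cells highest in control XX (23.8 and 17.9). *Rnf43* in supporting cells of control XY was at 3.51 and 3.05 CPM, a range that overlapped that of immune cells (3.07 and 3.21), and at most 0.237 CPM in control XY interstitial, Leydig, endothelial cells and pericytes.

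*Axin2*, which scaffolds the β-catenin destruction complex and is itself induced by β-catenin, was highest in the epithelium of control XY (20.7 and 28.5 CPM) and dKO XY (37.0 and 51.3). In control XX, supporting cells (86.1 and 69.1 CPM) and epithelium (72.4 and 41.7) overlapped. *Lef1*, the DNA-binding partner of β-catenin, followed another order. Endothelial cells were highest in control XY, at 23.2 and 29.3 CPM, and germ cells in dKO XY, at 38.0 CPM in both libraries. Of the 10 members, 3 were highest in supporting cells of control XY, 2 in those of dKO XY and 6 in those of control XX.

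What loss of *Amh* and *Inhbb* changed in XY supporting cells was tested on the UMIs summed per library, with the edgeR quasi-likelihood test on 15996 genes and Benjamini-Hochberg adjustment. Between dKO XY and control XY, 7 of the 10 members rose, 1 fell and 2 did not pass; 16.2% of all genes tested were called. The median log2 fold change of the members was 1.48, beside 0.01 over all genes tested. *Rspo1* changed most. From 5.08 and 3.36 CPM in control XY it rose to 126 and 158 in dKO XY, by 5.14 ± 0.22 on the log2 scale (SE; adjusted p = 1.73e-06, edgeR), or 35.4-fold. *Wnt4* went from 53.1 and 59.4 to 139.5 and 159 CPM, a log2 fold change of 1.41 ± 0.13 (adjusted p = 9.97e-05, edgeR). The groups overlapped for neither ligand.

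Both receptors of R-spondin rose as well. *Lgr4* went from 34.5 and 34.6 CPM in control XY to 90.2 and 102 in dKO XY (log2 fold change 1.49 ± 0.13, adjusted p = 6.16e-05, edgeR). *Lgr5* was at 15.2 and 18.1, and at 46.9 and 52.0 CPM (1.57 ± 0.19, adjusted p = 0.000486). Every dKO XY library lay above both control XY libraries. Of the ligases that R-spondin holds back, *Rnf43* rose from 3.51 and 3.05 to 11.9 and 13.0 CPM (1.95 ± 0.19, adjusted p = 0.000113), whereas *Znrf3* had 18.0 and 21.3 CPM in control XY and 21.4 and 21.5 in dKO XY (0.13 ± 0.16, adjusted p = 0.679).

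The readouts went up together. *Axin2* rose from 10.9 and 10.7 CPM in control XY to 28.9 and 30.2 in dKO XY, by 1.47 ± 0.15 on the log2 scale (adjusted p = 0.000181, edgeR), and *Lef1* from 3.39 and 1.87 to 11.8 and 10.9 CPM, by 2.22 ± 0.25 (adjusted p = 0.000244). *Fzd1* had 5.32 and 9.84 CPM in control XY libraries, against 9.45 and 6.55 in dKO XY (0.04 ± 0.27, adjusted p = 0.953), and the groups overlapped.

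*Wnt5a* was the member that fell, from 49.6 and 61.2 to 24.7 and 25.2 CPM (log2 fold change −1.15 ± 0.13, adjusted p = 0.000333, edgeR). The sum of the 8 interstitial markers in supporting cells moved with it, from 1028 and 1179 CPM in control XY to 597 and 569 in dKO XY (control XX, 449 and 644), with none of the 8 at 0 in both libraries of any group. In supporting cells low in *Sycp3* and *Tcf21*, a gate whose use in this test was added after the data were seen, the *Wnt5a* difference was −0.07 (adjusted p = 0.866), so the call was lost. In the same gated cells the rise of *Wnt4* was 3.04 and that of *Rspo1* 6.35 on the log2 scale.

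In control XX supporting cells, 7 of the 10 members stood above control XY, 2 stood below and *Fzd1* did not pass, with 49% of all genes called. The differences were 5.88 ± 0.23 on the log2 scale for *Rspo1*, 3.80 ± 0.24 for *Lef1*, 3.24 ± 0.14 for *Wnt4*, 2.80 ± 0.16 for *Axin2*, 2.70 ± 0.19 for *Rnf43*, 2.27 ± 0.20 for *Lgr5* and 2.06 ± 0.13 for *Lgr4* (each with an adjusted p of at most 7.57e-06, edgeR). *Wnt5a* was lower, at 12.8 and 13.7 CPM (−2.12 ± 0.14). *Znrf3* was lower too, at 14.8 and 11.7 CPM (−0.62 ± 0.16, adjusted p = 0.0103), a call that was lost without control XY replicate 2 (−0.49) or without control XX replicate 2 (−0.45). In the gated cells low in *Sycp3* and *Tcf21* the difference of *Wnt4* was 4.92 and that of *Wnt5a* −0.94.

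Set directly against control XX, dKO XY supporting cells still differed in 9 of the 10 members, 7 lower and 2 higher, where 41.1% of all genes were called. The dKO XY and control XX libraries are the ones used above, so the comparisons share samples. *Wnt4* was 3.55-fold lower in dKO XY (log2 −1.83 ± 0.13, adjusted p = 3.92e-06, edgeR), *Lef1* 2.98-fold lower and *Axin2* 2.52-fold lower. Among the genes of the R-spondin branch, *Rspo1* was 1.66-fold lower (−0.74 ± 0.17, adjusted p = 0.00582), *Lgr4* 1.48-fold, *Rnf43* 1.68-fold and *Lgr5* 1.63-fold. *Wnt5a* was 1.97-fold and *Znrf3* 1.68-fold higher in dKO XY. The *Lgr5* difference (−0.70 ± 0.18, adjusted p = 0.00993) rested on few libraries: it did not pass without dKO XY replicate 1 (−0.62, adjusted p = 0.0518) or without control XX replicate 1 (−0.39, adjusted p = 0.0845).

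**Figure D1:**
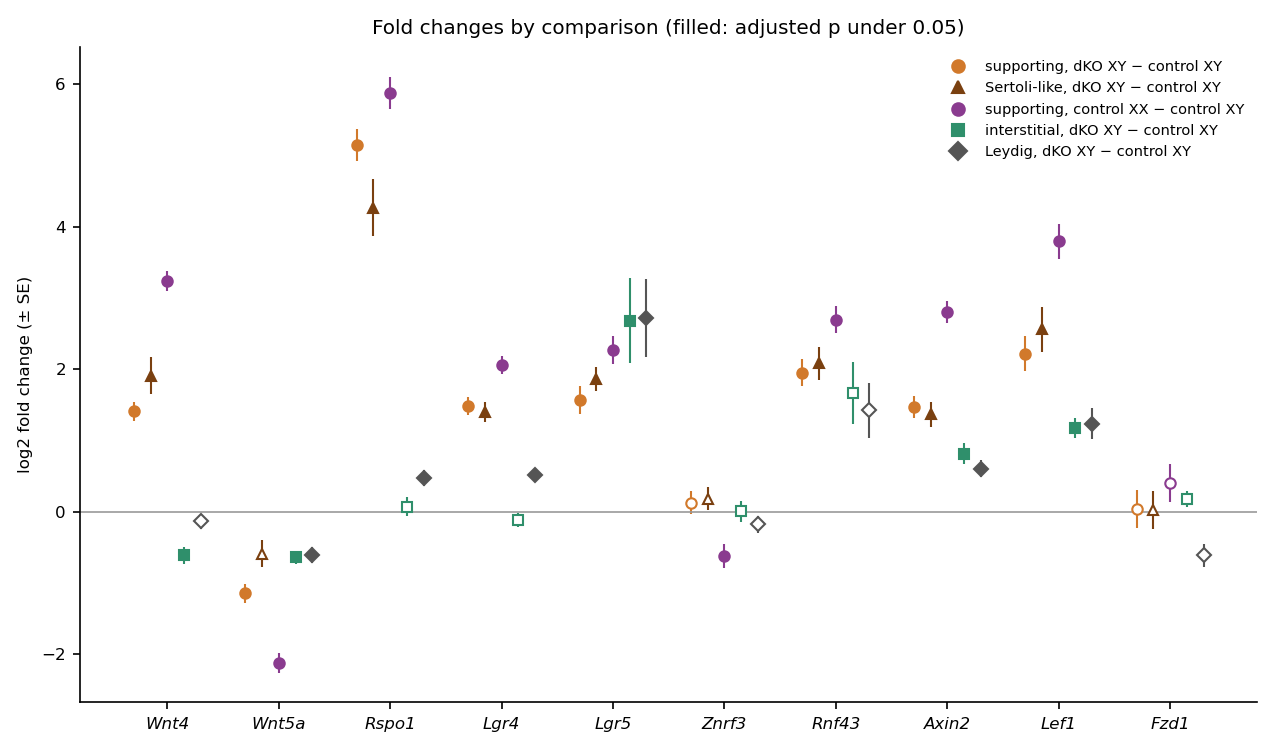
Log2 fold change of each member (horizontal axis), with bars for 1 SE, in 5 comparisons; filled points passed an adjusted p of 0.05 in the edgeR fit over all genes and open points did not. In supporting cells of dKO XY against control XY 8 of 10 points are filled, led by *Rspo1* at 5.14, where 16.2% of all genes were called. *Wnt5a* alone among them lies below 0, at −1.15. This call was lost in the supporting cells low in *Sycp3* and *Tcf21* (−0.07).

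Supporting cells of dKO XY gonads were not uniform. Only cells low in *Sycp3* (germ cells) and *Tcf21* (interstitial cells) were clustered again. This left 6426 of 7338 supporting cells: 202 and 436 of 263 and 546 in control XY, 1205 and 934 of 1327 and 1018 in dKO XY, and 2736 and 913 of 3000 and 1184 in control XX. With 28 genes of the Wnt lists kept out of the variable genes, the gated dKO XY cells held Sertoli-like cells (665 and 410) and a subcluster led by *Tnnt2*, *Smoc2* and *Spon1* (471 and 501 cells), which passed too few markers to be named; control XY had 12 and 30 such cells and control XX 20 and 11. In dKO XY this subcluster held 569 and 597 CPM of 7 granulosa markers, 1380 and 1099 of 9 Sertoli markers and 444 and 418 of 6 Leydig markers in sum. Its 8 interstitial markers summed to 650 and 662 CPM, against 166 and 159.7 in the dKO XY Sertoli-like cells, and their part in the levels of this subcluster was not tested. Control XX supporting cells were mainly granulosa-like cells and a subcluster led by *Lmcd1*, *Tgfb2* and *Msx1*. Levels between subclusters are again given with no test.

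The ligands divided these subsets. In dKO XY the cells led by *Tnnt2* held 288 and 279 CPM of *Rspo1*, against 12.4 and 21.2 in the Sertoli-like cells of the same libraries and 282 and 247 in control XX granulosa-like cells. For *Wnt4* the levels were 256 and 247 CPM there, 31.9 and 49.3 in Sertoli-like cells and 586 and 574 in granulosa-like cells. *Rspo1* thus reached the range of granulosa-like cells in this subcluster and *Wnt4* did not.

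*Lgr5* was distributed the other way. Sertoli-like cells of dKO XY held 67.3 and 84.8 CPM, the cells led by *Tnnt2* 20.1 and 22.5, and granulosa-like cells of control XX 119.8 and 83.0. *Lgr4*, by contrast, was at 125 and 140.1 CPM in the cells led by *Tnnt2*, beside 56.2 and 57.6 in Sertoli-like cells. *Rnf43* had the same order as *Lgr5*, at 14.8 and 17.9 CPM in Sertoli-like cells and 9.61 and 9.25 in the cells led by *Tnnt2*. *Axin2* was at 38.3 and 35.9 CPM and *Lef1* at 13.8 and 10.7 in the cells led by *Tnnt2*, above Sertoli-like cells (21.7 and 22.7, and 8.74 and 9.20 CPM) and below granulosa-like cells (89.2 and 75.2, and 41.9 and 35.5 CPM).

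Without the subcluster led by *Tnnt2*, an alternative added after the data were seen, all 8 calls in supporting cells of dKO XY held. The rise of *Wnt4* was then 0.65 (adjusted p = 0.00428, edgeR) and that of *Rspo1* 3.92. Against control XX, the *Rspo1* difference then widened from −0.74 to −2.15. That of *Wnt4* went from −1.83 to −2.65 and that of *Lgr4* from −0.57 to −0.99. That of *Lgr5* no longer passed (−0.25, edgeR adjusted p = 0.303). These fits kept the supporting cells that the gate on *Sycp3* and *Tcf21* leaves out, in all groups. In the gated cells with the subcluster included, the rise of *Wnt4* was 3.04. The part of the cells outside the gate in the smaller rise was not tested.

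**Figure D2:**
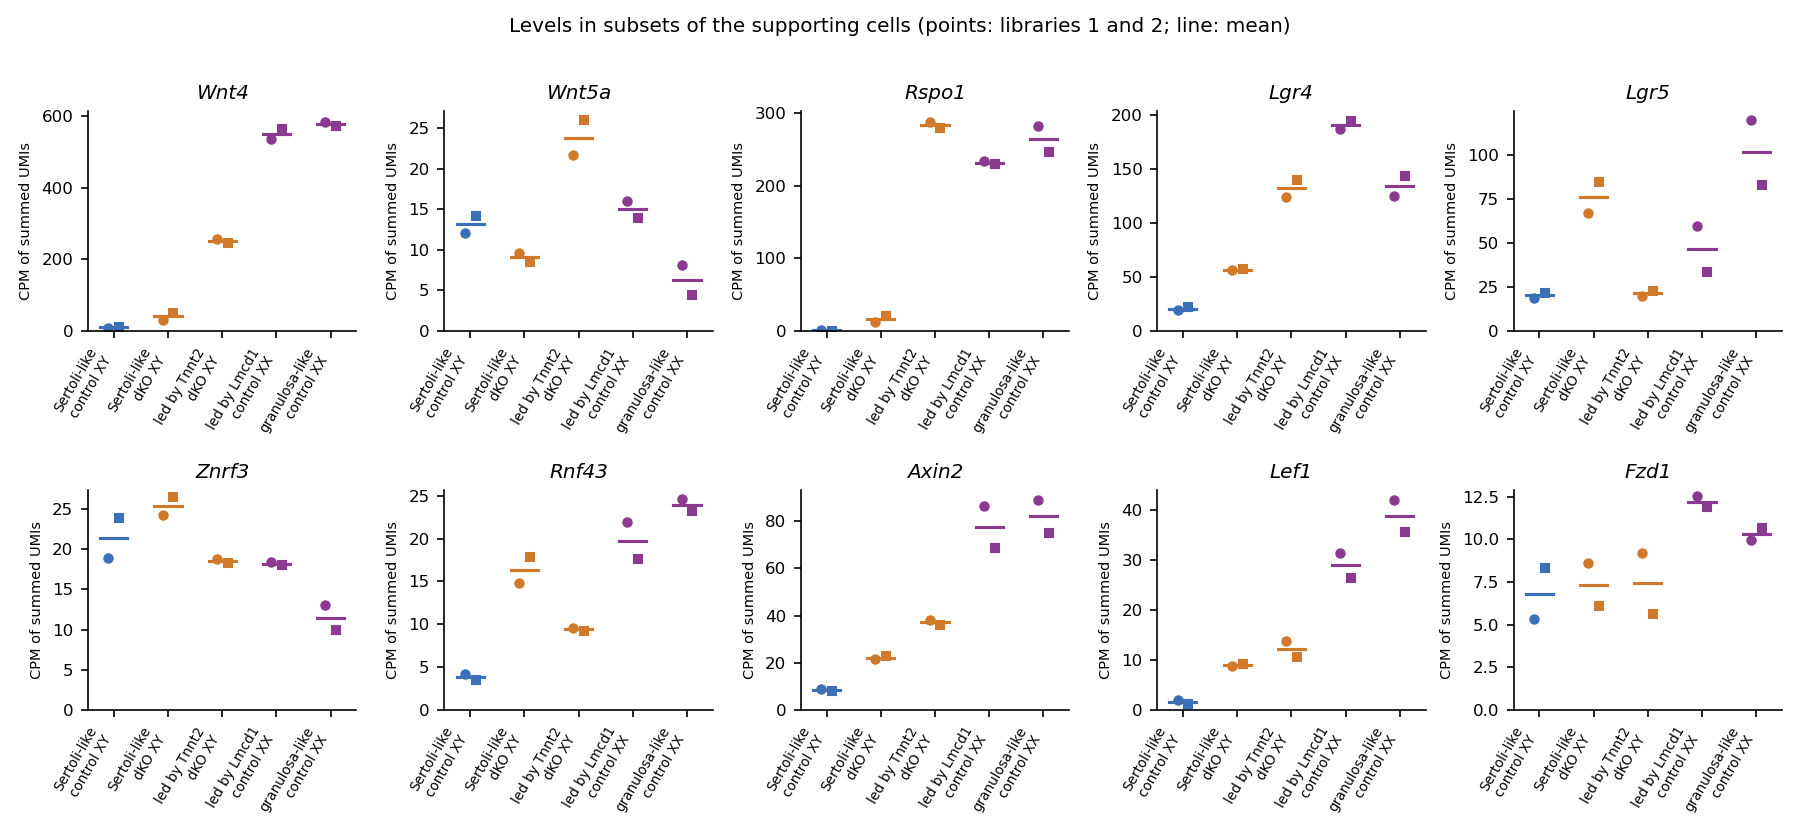
CPM of the members (vertical axis) in subsets of supporting cells (horizontal axis), from left to right Sertoli-like cells of control XY and dKO XY, dKO XY cells led by *Tnnt2*, control XX cells led by *Lmcd1* and control XX granulosa-like cells; points are libraries and the line is the mean. *Rspo1* in dKO XY cells led by *Tnnt2* (288 and 279 CPM) lies at the level of granulosa-like cells, and *Lgr5* there (20.1 and 22.5) lies below the dKO XY Sertoli-like cells.

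Sertoli-like cells, taken from the gated cells, carried Sertoli markers also in dKO XY (the 9 summed to 10877 and 8660 CPM, and to 10556 and 9352 in control XY), although the germ cell genes *Dppa5a*, *Dppa3* and *Utf1* led the larger of their 2 subclusters. In the comparison of the 4 XY libraries, 7 of the 10 members rose and none fell, with 14.6% of 13687 genes called. *Lgr5* rose from 18.7 and 21.6 to 67.3 and 84.8 CPM (log2 fold change 1.86, adjusted p = 3.5e-05, edgeR) and *Lgr4* from 19.1 and 22.4 to 56.2 and 57.6. *Rnf43* went from 4.15 and 3.46 to 14.8 and 17.9 CPM. *Axin2* and *Lef1* rose in these cells too, from 8.79 and 7.99 to 21.7 and 22.7 CPM and from 1.99 and 1.15 to 8.74 and 9.20 CPM. *Wnt5a* (−0.59, adjusted p = 0.0636), *Znrf3* (0.18, adjusted p = 0.551) and *Fzd1* (0.02, adjusted p = 0.975) did not pass.

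The ligands rose in Sertoli-like cells to levels also seen in immune cells. *Rspo1* went from 1.16 and 0.659 to 12.4 and 21.2 CPM and *Wnt4* from 7.63 and 12.5 to 31.9 and 49.3, both past the test. The log2 fold changes depended on the setting, at 4.27 for *Rspo1* (3.78 without control XY replicate 2 to 5.32 with clusters from all variable genes) and 1.91 for *Wnt4* (1.54 without dKO XY replicate 2 to 3.40 with components computed on supporting cells only). Immune cells, which should lack both genes, held 13.0 and 20.3 CPM of *Rspo1* in the same dKO XY libraries and 1.96 and 3.92 in control XY. Their *Wnt4* was at 40.3 and 41.7 CPM in dKO XY and 37.1 and 48.9 in control XY, so it did not move with genotype as in Sertoli-like cells and lay above the control XY Sertoli-like level. A UMI of *Rspo1* was found in 18.3% (95% exact Clopper-Pearson interval 15.47% to 21.5%) and 27.1% (22.8% to 31.7%) of dKO XY Sertoli-like cells, with medians of 25136 and 36936 UMIs per cell, and in 12.02% (7.69% to 17.6%) and 16.8% (10.1% to 25.6%) of immune cells, with medians of 23861 and 23989. With each cell thinned to 5000 UMIs, *Rspo1* was seen in 3.76% and 7.80% of Sertoli-like and 2.73% and 3.96% of immune cells, and *Wnt4* in 8.72% and 15.9% of Sertoli-like and 12.02% and 11.9% of immune cells; no cell was too shallow. In dKO XY replicate 2 both thinned shares were thus higher in Sertoli-like than in immune cells, and in replicate 1 that of *Wnt4* was lower. The part of free RNA in these levels was not tested.

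*Lgr5* lay further from immune cells. Its thinned share was 27.4% and 33.4% in dKO XY Sertoli-like cells and 6.84% and 9.36% in those of control XY, beside 0% and 1.98% of dKO XY immune cells. In the cells led by *Tnnt2*, the thinned share of *Rspo1* was 60.3% and 61.9%, and that of *Lgr5* 7.01% and 8.98%. Intervals cover counting error only. Markers of germ cells moved with genotype in Sertoli-like cells: 8 of them summed to 148 and 40.0 CPM in control XY and 374 and 504 in dKO XY, and 7 granulosa markers to 10.6 and 6.10 against 83.2 and 105; none was at 0 in both libraries, and their part in the rises was not tested.

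**Figure D3:**
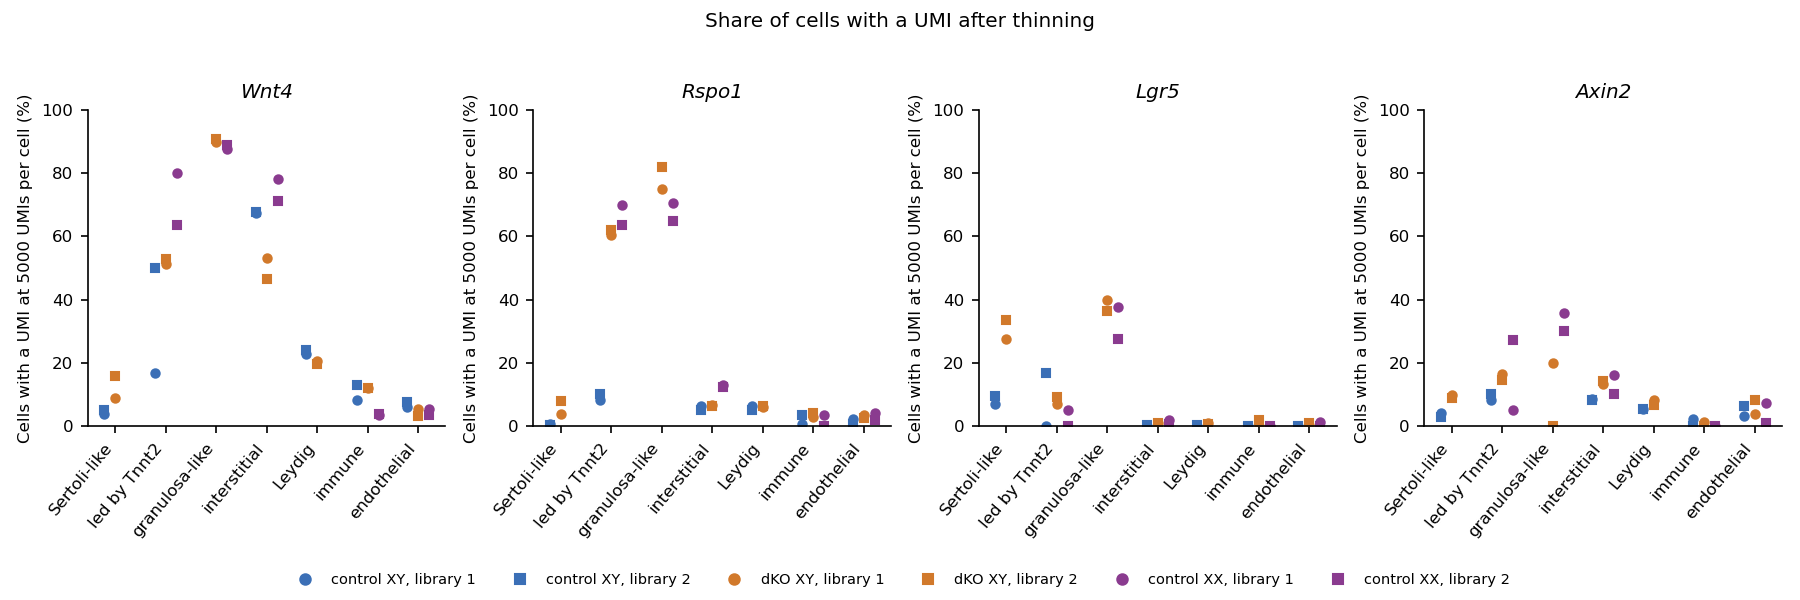
Percent of cells with at least 1 UMI of *Wnt4*, *Rspo1*, *Lgr5* and *Axin2* (vertical axis) after thinning each cell to 5000 UMIs, in 7 subsets (horizontal axis), 1 point per library. *Rspo1* is seen in 60.3% and 61.9% of the dKO XY cells led by *Tnnt2* and in 3.76% and 7.80% of dKO XY Sertoli-like cells, beside 2.73% and 3.96% of the immune cells of those libraries.

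In interstitial cells, the mesenchyme between the cords, loss of *Amh* and *Inhbb* went with a change of the opposite sign in *Wnt4*. Of the 10 members, 3 rose and 2 fell, where 5.88% of 16776 genes were called, with a median log2 fold change of 0.13 over the members. *Wnt4* fell from 309 and 318 CPM in control XY to 222 and 188 in dKO XY (−0.61, adjusted p = 0.0233, edgeR), and *Wnt5a* from 346 and 352 to 223 and 228 (−0.64, adjusted p = 0.00834). The readouts moved the other way: *Axin2* rose from 18.7 and 17.5 to 29.3 and 34.6 CPM (0.82, adjusted p = 0.0207) and *Lef1* from 8.87 and 7.81 to 16.5 and 21.5 (1.18, adjusted p = 0.00467). *Rspo1* (15.3 and 12.7, and 15.8 and 13.6 CPM) and *Lgr4* (101 and 106, and 100.3 and 90.7 CPM) did not pass.

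*Lgr5* passed with a log2 fold change of 2.68 (adjusted p = 0.0396, edgeR), but at 0.138 and 0.409 CPM in control XY against 1.55 and 2.01 in dKO XY, and the immune cells, endothelial cells and pericytes of dKO XY held 0.927 to 3.21 CPM. The number of members called in interstitial cells was 5 with all libraries and depended on them: it was 1 without control XY replicate 1, 2 without control XY replicate 2 and 2 without dKO XY replicate 2. *Lef1* was called in each of these. *Wnt4* kept its sign, from −0.48 to −0.64, but did not pass without these libraries (adjusted p 0.138, 0.152 and 0.118), and *Wnt5a* did not pass without either control XY library (0.0762 and 0.0784). The call of *Lgr5* was lost without control XY replicate 1 (0.148), dKO XY replicate 1 (0.0581) or dKO XY replicate 2 (0.0884), with total UMIs as library size (0.0669), with the replicate block (0.0759) and at resolution 0.5 (0.0509), and its log2 fold change ranged from 2.11 to 3.67 with 1 library left out. The rise of *Axin2* did not pass without control XY replicate 1 (0.0857) or 2 (0.108), without dKO XY replicate 2 (0.0705) or with total UMIs as library size (0.0515).

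By cluster, the *Wnt4* and *Wnt5a* levels of the genotypes lay apart in some interstitial cells and overlapped in others, here given with no test. In the cluster led by *Msc*, *Col25a1* and *Pdlim3*, *Wnt4* was at 330.2 and 354 CPM in control XY against 197 and 163 in dKO XY, and in the cycling interstitial cluster at 258 and 271, and 166 and 137. In the cluster led by *Il33*, *Gdf10* and *Crabp1*, which holds 261 and 222 control XY, 677 and 317 dKO XY and most control XX cells, it was at 498 and 423, and 471 and 533 CPM, and the groups overlapped. *Axin2* was at 19.3 and 19.0 against 31.1 and 36.7 CPM in the cluster led by *Msc* and at 14.3 and 11.47 against 15.9 and 14.9 in the cluster led by *Il33*, with no overlap in either. *Lef1* was apart in the cluster led by *Msc* (10.2 and 7.68 against 20.9 and 30.01 CPM) and overlapped in the one led by *Il33* (1.44 and 4.22 against 4.91 and 3.63 CPM). Taken alone, with a choice made after the data were seen, the cluster led by *Msc* had a *Wnt4* change of −0.93 (edgeR adjusted p = 0.00884), and *Rspo1* was lower there (−0.56, adjusted p = 0.0447). The sum of 8 interstitial markers was 7358 and 7050 CPM in control XY and 4679 and 4791 in dKO XY in this cluster, and its part in the falls was not tested. Germ cell markers rose there from 7.57 and 7.91 to 39.6 and 54.6 CPM and granulosa markers from 13.5 and 16.6 to 43.0 and 36.5. Leydig and endothelial markers were lower in dKO XY. The part of such RNA in the rises of *Axin2* and *Lef1* was not tested.

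**Figure D4:**
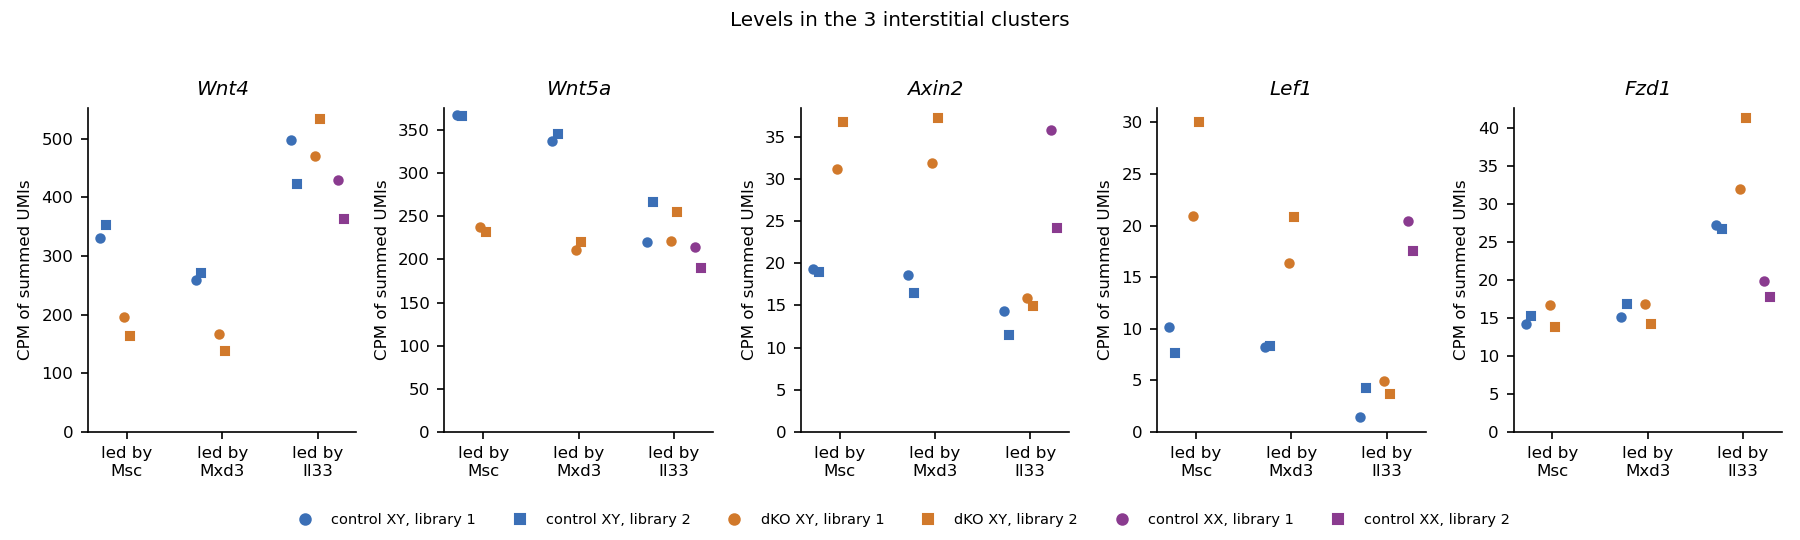
CPM of *Wnt4*, *Wnt5a*, *Axin2*, *Lef1* and *Fzd1* (vertical axis) in the 3 interstitial clusters (horizontal axis), 1 point per library, coloured by group. *Wnt4* is lower in dKO XY than in control XY in the cluster led by *Msc* (197 and 163 against 330.2 and 354 CPM), and the groups overlap in the cluster led by *Il33*, *Gdf10* and *Crabp1*.

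Between control XX and control XY interstitial cells, 7 members were higher and 1 lower, with 25.2% of all genes called; the XX cells lay nearly all in the cluster led by *Il33* and the XY cells mostly in the other two. In the cluster led by *Il33*, which holds cells of both, *Rspo1* was instead lower in control XX (31.9 and 27.5 against 49.6 and 33.6 CPM), and *Wnt4* (430 and 363 against 498 and 423 CPM) and *Lgr5* (3.11 and 0.955 against 0.144 and 2.70 CPM) overlapped. *Lgr4*, which did not pass over all interstitial cells, was higher there in control XX (111 and 106 against 32.7 and 41.0 CPM). The other called members kept their direction there. *Axin2* (35.7 and 24.2 against 14.3 and 11.47 CPM) and *Lef1* (20.5 and 17.5 against 1.44 and 4.22 CPM) did not overlap. Neither did *Znrf3* (14.8 and 10.3 against 7.07 and 7.93 CPM). *Wnt5a* was only just lower (214.9 and 189.8 against 219.8 and 266 CPM). *Rnf43* was higher at low levels (1.61 and 0.879 against 0.144 and 0.506 CPM). The share of all genes apart in this way was not counted. Over all interstitial cells, *Rspo1* was at 31.9 and 27.5 CPM in control XX (log2 1.15 ± 0.13 above control XY, adjusted p = 0.000494, edgeR), *Lef1* at 20.4 and 17.5 (1.25 ± 0.14) and *Axin2* at 35.7 and 24.1 (0.78 ± 0.15). *Rnf43* (2.86 ± 0.43), *Lgr5* (2.92 ± 0.62) and *Znrf3* (0.67 ± 0.15) were higher too, *Lgr5* by 1.91 to 3.91 with 1 library left out. *Wnt5a* was lower (−0.72 ± 0.09). In the cluster led by *Il33*, 7 granulosa markers summed to 118.5 and 64.4 CPM in control XX against 22.1 and 51.9 in control XY. The part of granulosa RNA in the higher levels of control XX interstitial cells was not tested. *Wnt4* was higher by 0.40 ± 0.12 (adjusted p = 0.0415, edgeR). It did not pass without control XY replicate 1 (0.37), control XY replicate 2 (0.42) or control XX replicate 1 (0.33). The call was also lost with the replicate block (0.40, edgeR adjusted p = 0.0739) and with total UMIs as library size (0.34, 0.0752). The calls fell from 8 to 5 without control XX replicate 1, where *Lgr5* (adjusted p = 0.0544) and *Znrf3* (0.0627) did not pass either; *Znrf3* did not pass without control XY replicate 1 (0.0991).

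Whether the effect of genotype differed between supporting and interstitial cells was tested as an interaction, with the library as a block, over 17292 genes, of which 19.2% were called. It passed for 6 of the 10 members. The dKO XY effect was larger in supporting cells by 5.02 on the log2 scale for *Rspo1* (adjusted p = 2.79e-06, edgeR), by 2.00 for *Wnt4* (2.41e-05), by 1.57 for *Lgr4* (3.86e-05), by 1.01 for *Lef1* (0.0191) and by 0.61 for *Axin2* (0.00396). For *Wnt5a* it was −0.54 (0.00753), with changes of −1.15 in supporting and −0.64 in interstitial cells. This difference rests on all supporting cells: in those low in *Sycp3* and *Tcf21* the *Wnt5a* change was −0.07 (adjusted p = 0.866), smaller than the interstitial fall, and the interaction was not tested in them. *Lgr5* did not pass (−1.12, adjusted p = 0.0791).

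In Leydig cells, the steroid-producing cells of the testis, 5 members rose and 1 fell between dKO XY and control XY, with 10.1% of 14747 genes called. *Lef1* went from 1.10 and 1.31 to 2.92 and 2.94 CPM (log2 fold change 1.24 ± 0.21, adjusted p = 0.0116, edgeR) and *Axin2* from 10.1 and 8.75 to 14.4 and 14.9 (0.61 ± 0.12, adjusted p = 0.0213). *Lgr4* rose from 28.7 and 30.4 to 45.4 and 41.3 CPM (0.52 ± 0.10), *Rspo1* from 10.6 and 11.1 to 14.7 and 16.1 (0.47 ± 0.11, adjusted p = 0.0366), and *Wnt5a* fell from 97.95 and 106 to 60.6 and 77.1 (−0.60 ± 0.12, adjusted p = 0.0168). *Lgr5* passed with 0.0538 and 0.430 against 1.63 and 1.88 CPM, again no higher than in the dKO XY immune cells (2.10 and 3.21). *Rspo1* in dKO XY was likewise at the level of those immune cells. *Wnt5a* fell by a like amount in interstitial cells (−0.64). In immune cells its difference ran from −2.18 to −0.54 over the settings, with no call in the main fit. The part of interstitial RNA in the Leydig fall of *Wnt5a* was not tested. *Wnt4* was at 59.5 and 66.5, and 62.3 and 55.1 CPM, and did not pass (−0.14 ± 0.10, adjusted p = 0.481, edgeR), and neither did *Rnf43* (1.42 ± 0.38, 0.0552), *Fzd1* (−0.61 ± 0.16, 0.0538) or *Znrf3* (−0.17 ± 0.12, 0.428). *Rnf43* and *Fzd1* did pass in some alternatives, over which *Fzd1* ranged from −0.88 to −0.41 and *Rnf43* from 1.24 to 1.48. The calls of *Rspo1*, *Lgr4* and *Axin2* were each lost without 1 control XY library or more: *Rspo1* without replicate 1 (adjusted p = 0.225) or 2 (0.136), *Lgr4* without replicate 1 (0.101) and *Axin2* without replicate 2 (0.136). *Rspo1* did not pass without the cells with the highest doublet scores either (0.34, adjusted p = 0.0821), nor *Axin2* with clusters from all variable genes (0.46, 0.0663).

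Endothelial cells, pericytes and immune cells gave no call for any member between dKO XY and control XY. The counts were 0 of 9, 0 of 8 and 0 of 7 members tested, with 0.523%, 0.341% and 0.0177% of all genes called. In each, 2 members had an unadjusted p under 0.05 (edgeR), and DESeq2 also called 0. Some other settings did call members in each type, such as no filter in endothelial and immune cells, as listed further below. *Rspo1* had 1.96 and 3.92 CPM in control XY against 13.0 and 20.3 in dKO XY immune cells (2.47 ± 0.47, adjusted p = 0.211, edgeR), and at 1.33 and 1.58, and 7.51 and 3.56 CPM in endothelial cells (1.96 ± 0.61, adjusted p = 0.278). Between control XX and control XY, 1 member passed in each type, where 4.8%, 7.43% and 2.58% of all genes were called; the count was 2 without control XX replicate 2 in endothelial cells, and 3 without dKO XY replicate 1 and 2 without dKO XY replicate 2 in pericytes. *Wnt5a* was lower in control XX endothelial cells (16.0 and 31.9 against 6.41 and 4.51 CPM, −2.10 ± 0.31, adjusted p = 0.00212), and *Wnt4* in control XX pericytes (121 and 175 against 39.8 and 63.8 CPM, −1.39 ± 0.23, adjusted p = 0.00148). With 1 library left out, the endothelial *Wnt5a* difference ranged from −2.47 to −1.46 and the pericyte *Wnt4* difference from −1.90 to −1.11. *Wnt5a* was also lower in control XX immune cells (42.5 and 61.0 against 0 and 6.14 CPM, −3.68 ± 0.55, adjusted p = 0.0169, edgeR). This did not pass without control XY replicate 2 (−3.46) or without the cells with the highest doublet scores (−2.27, adjusted p = 0.05, edgeR). Over all alternatives it ranged from −10.28 to −2.27. The 8 interstitial markers in immune cells went from 921 and 1087 CPM in control XY to 27.5 and 122 in control XX, and their part in the *Wnt5a* difference was not tested. *Pdgfra*, 1 of these markers, went from 27.9 and 27.9 to 1.93 and 4.71 CPM in endothelial cells. In pericytes it went from 34.1 and 44 to 11.4 and 18.4 CPM. *Pdgfra* is also among the genes whose levels went most like *Wnt5a*, as given below. The other markers are not given for these types. The part of interstitial RNA in the endothelial *Wnt5a* and pericyte *Wnt4* differences was not tested either.

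Germ cells were too few in control XY (15 and 7), so dKO XY was compared with control XX only, with 51.9% of 13589 genes called. The germ cells of the groups were not alike: at resolution 0.5, 372 and 241 dKO XY cells but 26 and 10 control XX cells lay in the cluster led by *Dppa3*, *Dppa5a* and *Utf1*, and 42 and 40 against 280 and 285 in the one led by *Sycp3*, *Syce3* and *Tex101*. Of the 10 members 2 were higher and 2 lower in dKO XY. *Lef1* was at 38.0 CPM in both dKO XY libraries against 27.8 and 17.6 (0.80 ± 0.21, adjusted p = 0.00157, edgeR) and *Lgr4* at 37.3 and 38.0 against 27.3 and 26.0 (0.56 ± 0.19, adjusted p = 0.0153). *Wnt4* (22.5 and 23.3 against 39.2 and 34.2 CPM, −0.62 ± 0.20, adjusted p = 0.00942) and *Znrf3* (11.1 and 15.01 against 23.8 and 17.9 CPM, −0.62 ± 0.23, adjusted p = 0.0243) were lower. The *Wnt4* difference was −0.07 (adjusted p = 0.8) without the cells with the highest doublet scores. With clusters at resolution 0.5, *Lgr4* (0.16, adjusted p = 0.467) and *Znrf3* (−0.46, 0.0874) did not pass, and neither did *Znrf3* by DESeq2 (0.0602). The 4 calls became 1 without dKO XY replicate 1 and 2 without control XX replicate 1; *Wnt4* (adjusted p 0.0553 and 0.076), *Lgr4* (0.0664 and 0.0777) and *Znrf3* (0.241 and 0.185) did not pass then. Without control XX replicate 2, *Lgr4* (0.0824) and *Lef1* (0.0906) did not pass.

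The rest of the pathway was read from lists of 96 Wnt genes, members included. In supporting cells of dKO XY against control XY, 79 were tested, of which 19 rose and 5 fell; without the members, 16 of 69 were called, beside 16.2% of all genes. Among 13 targets of β-catenin tested, members among them, 8 rose and 1 fell, with a median log2 fold change of 1.57. These were led by the transcription factor *Sp5* (4.72 ± 0.30), *Ccnd1*, the cyclin of the G1 phase (4.28 ± 0.30), *Tnfrsf19* (4.01 ± 0.21) and *Nkd1*, an inhibitor of Dishevelled that is also a target (2.60 ± 0.14, each with an adjusted p of at most 2.23e-05, edgeR). Of 14 ligands and R-spondins, the members *Wnt4*, *Rspo1* and *Wnt5a* included, 6 rose and 2 fell. Those that rose included *Wnt11* (1.88) and *Wnt5b* (1.09). Of 18 receptors 2 rose, the members *Lgr4* and *Lgr5*, and 1 fell, and of 11 intracellular components 1 rose. The extracellular inhibitor *Sostdc1* fell (−2.85 ± 0.26, adjusted p = 8.65e-05, edgeR), as did *Tcf7* (−0.75). *Sostdc1* also fell in interstitial cells (−1.25), where its mean log2 CPM was 7.29, against 4.26 in supporting cells. Interstitial markers in supporting cells fell too, as given above, and their part in the *Sostdc1* fall was not tested. In Sertoli-like cells 22 of 68 rose and 2 fell, or 15 and 2 of 58 without the members (14.6% of all genes were called). Outside the members the rise was again led by *Sp5* (5.12), *Ccnd1* (4.38), *Tnfrsf19* (3.73) and *Nkd1* (3.65), with *Wls*, which carries WNT proteins to the surface, at 0.84.

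Control XX supporting cells differed from control XY in 50 of the 79 Wnt genes, 29 higher and 21 lower, where 49% of all genes were called. The lower ones included secreted inhibitors: *Sostdc1* (−7.52), *Frzb* (−7.30), *Sfrp4* (−5.47) and *Sfrp1* (−1.498). In immune cells of control XX *Sostdc1* was lower as well (0 and 0 against 32.4 and 40.0 CPM) and *Sfrp1* was at 0 and 14.9 against 48.9 and 77.1 CPM, and the interstitial markers in supporting cells were lower too, as given above; their part in these differences was not tested. Of 18 inhibitors tested, 8 were lower and 6 higher in control XX. In dKO XY against control XX, 45 were called, 20 higher and 25 lower, where 41.1% of all genes were called, and *Frzb* (7.27), *Sfrp4* (5.10) and *Sostdc1* (4.66) stood above control XX.

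In interstitial cells of dKO XY 12 of 83 Wnt genes rose and 8 fell, where 5.88% of all genes were called. Without the members, 9 of 73 rose and 6 fell. Of 15 targets 8 rose, the members *Axin2*, *Lef1* and *Lgr5* among them, and none fell. Among genes other than the members whose mean log2 CPM reached 3, *Ccnd1* (1.81), *Tnfrsf19* (1.75), *Wnt11* (1.17), *Nkd2* (1.04), *Tcf7* (0.72) and *Shisa2* (0.60) led the rise, and *Sostdc1* (−1.25), *Fzd8* (−0.74), *Tcf7l2* (−0.46) and *Ror2* (−0.44) the fall. *Sp5*, below that level, was higher by 4.18. The difference from its change in supporting cells did not pass the interaction test (0.47, adjusted p = 0.519, edgeR). Its level was not set against that in immune cells. The 20 calls were 7 without control XY replicate 1, 11 without control XY replicate 2 and 13 without dKO XY replicate 2. Control XX interstitial cells had 27 higher and 13 lower (25.2% of all genes were called), with *Tnfrsf19* at 5.61 and *Sostdc1* at −5.81. In Leydig cells 12 of 71 rose and 5 fell, or 7 and 4 of 61 without the members (10.1% of all genes were called). Among genes other than the members whose mean log2 CPM reached 3, *Ccnd1* (3.01), *Shisa2* (0.80) and *Wnt6* (0.72) were highest. *Sfrp4* (−1.31), *Sostdc1* (−0.94) and *Tcf7l2* (−0.32) were lowest. The immune cells held 32.4 and 40.0 CPM of *Sostdc1* in control XY against 16.4 and 22.1 in dKO XY, which did not pass (−0.95, adjusted p = 0.357, edgeR). In germ cells 23 of 69 were higher in dKO XY than in control XX and 13 lower, a share near the 51.9% of all genes called.

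Genes whose levels went most like a member over the 42 sums of a library and a cell type were found by Pearson's r of log2(CPM + 1) among 12417 genes; the sums share libraries and cells, so r is a description. *Wnt5a* was most like *Pdgfra* and *Col6a2* (r = 0.94 for both) and *Meg3* (0.93). *Lgr5* was most like *Krt8* (0.95), *Cgn* (0.94) and *Cst12* (0.94), and *Rspo1* most like *E330013P04Rik* (0.92), *Wnt9a* (0.91) and *Ccdc187* (0.91). *Wnt4*, with its peaks in both interstitial and supporting cells, had no match as near, with *Cacfd1* (0.87), *Zim1* (0.86) and *Pnmal2* (0.86), and neither had *Axin2*, with *Wdr6* (0.88), *Tfdp2* (0.88) and *Snap47* (0.88).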

How the data were processed

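Single cell mRNA sequencing was done on 6 libraries of E15.5 mouse gonads, 2 per group. As deposited, the tables hold unnormalized UMI counts for each gene and barcode, which the authors made with Cell Ranger after correcting swapped barcodes. The labels name the build mm10 and Seurat 4.0, and the annotation release is not given in the sources used here. Per the file headers, genes are listed by symbol only. Paralogs and antisense genes could share reads.

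Barcodes with 2500 to 9000 genes (both bounds excluded), under 25% mitochondrial and under 20% *Hbb* UMIs were kept, the bounds being the study's. They were clustered with 3000 variable genes, less 28 of the Wnt lists, 20 dimensions and a resolution of 0.21. The supporting cells among them with log levels of *Sycp3* and *Tcf21* under 1 were clustered once more (8 dimensions, resolution 0.25). The study's methods describe a gate on these genes without a level, so the bound of 1 was set here. Clusters were named by marker lists, with at least 3 markers found in 10% of cells at 1.5 times the level of the others. The automatic threshold of the Scrublet method marked 0 to 71 cells per library, too few to have worked, so doublets were kept and an alternative left out the top 8%.

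For each library and cell type of at least 10 cells, UMIs were added up and tested with edgeR 4.0.16 in R 4.3.3 (filterByExpr, TMM, glmQLFit and glmQLFTest, genotype as the factor, all groups in 1 fit except Sertoli-like and Leydig cells with the XY libraries and germ cells with dKO XY and control XX), with Benjamini-Hochberg adjustment over all genes tested and calls under 0.05. The SE is the log2 fold change over the square root of F. With 2 libraries against 2, an exact permutation test cannot go below p = 0.333 (two-sided), so none was used. Alternatives were DESeq2 1.42.0, total UMIs without TMM, no filter, a replicate block, the 2 groups alone, each library left out, doublets left out, over 3500 genes, other clusterings, and 3 subsets chosen after seeing the data. Cells were thinned to 5000 UMIs for shares. In simulated supporting cells of dKO XY against control XY (15996 genes), 62% of 2-fold and 84% of 4-fold changes were recovered, with 7.01% false calls. For immune cells (11300 genes) it was 21%, 75% and 15%. False calls were 9.04% for control XX against control XY supporting cells and 12.3% for dKO XY against control XX. Over all comparisons they ran from 3.01% (germ cells) to 15%, and were mostly above the nominal 0.05.

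The 10 members and the lists were chosen with earlier results of these data known. All members are named. Of other Wnt genes, the text names called ones whose mean log2 CPM was 3 or more, at most 6 per direction. The exceptions are *Sp5* in interstitial cells, below that level, and *Sostdc1* and *Sfrp1* in immune cells, given for comparison. The 3 genes most like *Wnt4*, *Wnt5a*, *Rspo1*, *Lgr5* and *Axin2* are named too. Symbols were matched to GENCODE M21 (GRCm38) for coordinates and to RefSeq (GRCm38.p6) for promoters. Depth per cell had medians of 18415 to 27124 UMIs per library.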

Additional observations from a re-analysis of the deposited data

Results flagged for a closer look

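For 6 members the dKO XY effect differed between supporting and interstitial cells, by the edgeR test of the interaction itself over 17292 genes with the library as a block. The difference of the log2 fold changes, supporting minus interstitial, was 5.02 for *Rspo1*, 2.00 for *Wnt4*, 1.57 for *Lgr4*, 1.01 for *Lef1* and 0.61 for *Axin2*, and −0.54 for *Wnt5a*. In supporting cells low in *Sycp3* and *Tcf21* the *Wnt5a* change was −0.07 (edgeR adjusted p = 0.866) rather than −1.15, less than the −0.64 of interstitial cells, and the interaction was not tested in those cells. The edgeR adjusted p-values ran from 2.79e-06 (*Rspo1*) to 0.0191 (*Lef1*), and 19.2% of all genes tested differed in this way. In supporting cells, both dKO XY libraries lay above control XY for the first 5 and below it for *Wnt5a*. In interstitial cells, both dKO XY libraries lay below control XY for *Wnt4* and *Wnt5a* and above it for *Axin2* and *Lef1*. No group has more than 2 libraries, so single libraries that stand apart were not tested for.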

How the results depend on the processing

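Of 898 alternatives of the 59 called member log2 fold changes, 849 kept the direction and the call, 49 lost the call and 0 changed direction; the cause was not tested. Of 65 shares of cells, 61 moved when cells were thinned to 5000 UMIs. In endothelial cells, pericytes and immune cells, changes of sign were followed for *Wnt4*, *Wnt5a* and *Rspo1* only. Fold changes that changed sign belong to members that were not called in the main comparison. For dKO XY against control XY, these were *Znrf3* in supporting cells low in *Sycp3* and *Tcf21* (−0.0253), *Fzd1* in supporting cells without doublets (−0.0333) or with over 3500 genes (−0.0219), *Fzd1* in Sertoli-like cells without doublets (−0.000614) or with components of the supporting cells alone (−0.0863), *Rspo1* in interstitial cells without doublets (−0.0538) or in the cluster led by *Msc* (−0.56), *Znrf3* in interstitial cells with the replicate block (−0.00104), at resolution 0.5 (−0.00925) or in the cluster led by *Msc* (−0.0809), *Wnt4* in Leydig cells without doublets (0.0537), *Wnt5a* in pericytes without doublets (0.111) or at resolution 0.5 (0.413), and *Wnt4* in immune cells with all variable genes (0.103). For germ cells they were *Rspo1* without doublets (0.262) or with over 3500 genes (0.0337), *Lgr5* without doublets (1.02) and *Fzd1* at resolution 0.5 (−0.0561).

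With 1 library left out, *Fzd1* ranged from −0.30 to 0.59 in supporting and from −0.23 to 0.41 in Sertoli-like cells, and in interstitial cells *Rspo1* from −0.0649 to 0.208 and *Znrf3* from −0.0936 to 0.103. *Wnt4* ranged from −0.60 to 0.27 (dKO XY) and −0.789 to 0.0787 (control XX) in endothelial and from −0.238 to 0.0554 in immune cells, *Wnt5a* from −0.479 to 0.0965 in pericytes, and in germ cells *Rspo1* from −0.39 to 0.19 and *Fzd1* from −0.0681 to 0.245. A group left with 1 library is assumed to vary like the others.

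Member counts of the interstitial dKO XY comparison ranged from 1 to 5 and the Wnt gene counts from 7 to 19 with 1 library left out; with total UMIs 3 members were called. The control XX count ranged from 5 to 8. Germ cells ranged from 1 to 4. In endothelial cells, no filter gave 2 members for dKO XY and 2 for control XX, whose range with a library left out was 1 to 2. In pericytes resolution 0.5 gave 1 for dKO XY; for control XX the count was 3 with no filter, with the 2 groups alone and at resolution 0.5, 2 with over 3500 genes and with all variable genes, and 1 to 3 with a library left out. In immune cells no filter gave 1 and leaving out doublets 2 for dKO XY; for control XX, DESeq2 gave 2, no filter 3, leaving out doublets 0, and a library left out 0 to 1. No filter gave 26 Wnt genes in Leydig cells, and 2 members were highest in control XX epithelium without doublets. Over all genes, dKO XY calls were 2593 in supporting cells (1182 without control XY replicate 2, 1687 without dKO XY replicate 2), 1994 in Sertoli-like cells (922 without control XY replicate 2), 987 in interstitial cells (1689 with no filter, 295 and 416 without control XY replicate 1 or 2, 630 without dKO XY replicate 2) and 1491 in Leydig cells (2707 with no filter, 989 without control XY replicate 1, 2351 without dKO XY replicate 1). They were 63 in endothelial (17 to 374), 41 in pericyte (7 to 222) and 2 in immune cells (0 to 430, 39 by DESeq2). Control XX calls were 4225 in interstitial (2679 and 2652 without control XY replicate 1 or 2), 579 in endothelial (147 to 1120), 893 in pericyte (441 to 1341) and 292 in immune cells (71 to 1171).

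The replicate numbers do not pair the libraries: deviations of same-numbered libraries correlated at 0.02, −0.09 and −0.16 in supporting and 0.09, −0.15 and −0.19 in interstitial cells. With the replicate block, members called were 8 in the dKO XY comparison of supporting cells, 4 in interstitial and 7 in Leydig cells, and 2 in pericytes of control XX; over all genes, 634 were called in interstitial and 2643 in Leydig cells. With 2 libraries per group, 2-fold changes were recovered in simulated immune cells in 21% of cases, so calls there say little about small changes.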

Other observations

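A few dKO XY supporting cells fell into the subclusters that held most control XX supporting cells. The 20 and 11 dKO XY cells of the granulosa-like subcluster held 743 and 499 CPM of *Wnt4* and 381 and 379 CPM of *Rspo1*, and the 49 and 12 dKO XY cells of the subcluster led by *Lmcd1* held 451 and 508 CPM of *Wnt4* and 336 and 346 CPM of *Rspo1*. The 12 and 30 control XY cells that fell into the subcluster led by *Tnnt2* held 38.7 and 219 CPM of *Wnt4* and 14.5 and 16.4 CPM of *Rspo1*. These values rest on few cells, which were placed there by their expression, and were not tested. In the epithelium, *Lgr5* was at 123 and 37.3 CPM in the control XX libraries, so their range enclosed the dKO XY levels of 55.5 and 60.3 CPM.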
